A study of Sus scrofa with 67 samples.

Results

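Whole ovaries collected on day 6 of the oestrous cycle were compared with whole ovaries collected on day 0, the day on which oestrous behaviour began. The members of this comparison are the libraries that the labels place in the ovary on day 0 and on day 6, 3 libraries each, which makes 6 of the 66 libraries in the count table. Both groups were crossbred (Landrace × Yorkshire) gilts of 6 to 8 months, which had shown at least 2 normal cycles, and the labels name no genotype and no treatment. The other libraries come from the ovary on the 5 later sampling days (3, 9, 12, 15 and 18) and from the endometrium and the oviduct on all 7 days. The gilts of day 0 and of day 6 were different animals, and the ovary of 1 side was used whole. A lower level of a gene can thus come from fewer cells of a type or from less RNA per cell, and these cannot be told apart here. The values are counts of poly-A RNA sequencing reads per gene, given here as CPM, that is relative to a library size that edgeR's TMM factors had adjusted for composition. Values of a group are given in the order of the library numbers 1, 2 and 3.

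As background, the ovary at oestrus carries large preovulatory follicles. Their theca cells make androgens, their granulosa cells turn these into oestrogen under the control of follicle-stimulating hormone, and the oocyte lies within. The surge of luteinizing hormone starts ovulation, after which the wall of the follicle is rebuilt into a corpus luteum, with ingrowth of blood vessels and a change of the steroid cells to progesterone. Progesterone is made from cholesterol, which luteal cells take up from lipoproteins or synthesize, so that receptors for lipoproteins, enzymes of cholesterol synthesis and the side-chain cleavage system in mitochondria are the usual landmarks of luteal tissue.

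Total counts were between 10767881 and 11279804 per library on day 0 and between 12285438 and 13189002 on day 6. By these totals, before the TMM factors, 3 counts correspond to between 0.2275 and 0.2786 CPM. With the TMM factors, 3 counts were 0.239 CPM in the day 0 library numbered 3 (RHCG) and 0.285 CPM in the day 6 library numbered 2 (MOS). The TMM factors lay apart, from 1.07 to 1.16 on day 0 and from 0.834 to 0.89 on day 6. The 10 most abundant genes took 9.27%, 10.7% and 9.5% of the counts on day 0 and 19.0%, 21.2% and 18.4% on day 6. The proteins encoded by the mitochondrial genome alone summed to between 44777 and 63599 CPM on day 0 and between 153362 and 206649 CPM on day 6. Across genes, the 3 libraries of day 6 were closer to one another (Pearson's r of log2 levels from 0.97 to 0.983) than those of day 0, where r was 0.964 between the libraries numbered 1 and 2, 0.912 between those numbered 1 and 3 and 0.933 between those numbered 2 and 3. The points of these r values are genes, which are no replicates, and the values serve as a description of the libraries only. Summed over the 16 leukocyte markers with an identifier, of which 14 were tested, the level was 6066, 5322 and 170.4 CPM on day 0 and 189, 181 and 161 CPM on day 6. The day 0 libraries numbered 1 and 2 therefore stood apart from the one numbered 3, which lay within the range of day 6. Most of the sum in the libraries numbered 1 and 2 came from 1 gene, LYZ, with 5138, 4752 and 19.7 CPM on day 0. The sum thus mainly follows LYZ, and the contrast in the other markers was smaller. Some follicle genes were low in the day 0 library numbered 1. INHA, a subunit of inhibin, had 76.2, 3059 and 7107 CPM on day 0, and CYP17A1, the androgen-forming enzyme of theca cells, had 76.9, 2805 and 2404 CPM. FSHR, another follicle gene, was highest in that library, with 16.5, 1.08 and 11.6 CPM, so follicle markers were not low there throughout. The comparison of day 6 with day 0 was also fitted without 1 library at a time and without both day 0 libraries numbered 1 and 2.

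The tissue label was checked on genes of the steroid-making cells. CYP11A1, which cuts the side chain of cholesterol, had from 278 to 2223 CPM in the ovary on day 0, against 4.31 to 7.2 CPM in the endometrium and 18.7 to 30.3 CPM in the oviduct on the same day, with each tissue normalized separately. FSHR, the receptor for follicle-stimulating hormone, had 16.5, 1.08 and 11.6 CPM in the ovary on day 0 and 0 counts in the endometrium. STAR, HSD3B1, PTGFR, CYP19A1, INHBA and AMH were not analysed here, because the reference table of symbols held no identifier of the count table for them. The labels give the tissue and the day and do not name luteal tissue. CYP11A1, LHCGR and SCARB1, which are described further on, were separate with day 6 above, but none of them was called.

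Of the 15638 genes tested, 1977 (12.6%) were differentially expressed genes (DEGs) at an adjusted p under 0.05 in edgeR (quasi-likelihood test, p adjusted after Benjamini and Hochberg). Of these, 1177 were higher on day 6, which is 7.53% of the genes tested, and 800 were lower, which is 5.12%. The falls were larger than the rises. The median log2 FC was -2.1 among the lower DEGs and 1.41 among the higher ones, and a change of at least 3 on the log2 scale was seen in 257 lower and 152 higher DEGs. Every library of day 6 lay above every library of day 0 in 21.2% of all genes tested and below in 18.7%, so that the groups were separate in 39.9%. Among the DEGs, this held for 1166 of the 1177 higher and 658 of the 800 lower genes, and in the remaining lower genes the groups overlapped. The day 0 library numbered 3 was the one nearest to day 6 in most DEGs: it had the highest day 0 value of 654 of the 1177 higher genes and the lowest of 527 of the 800 lower genes. Symbols were available for 1351 of the DEGs.

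**Figure D1:**
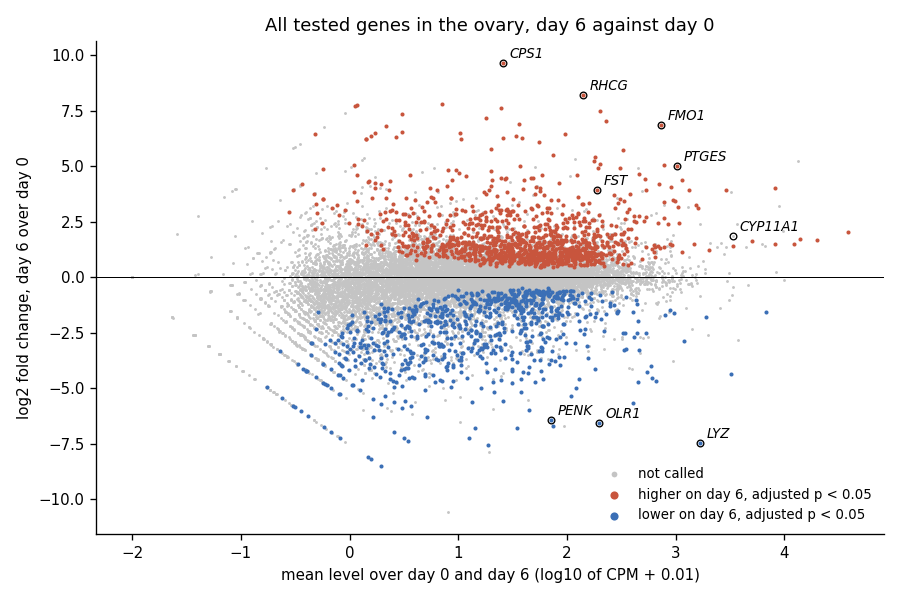
Each point is 1 of the genes tested in the ovary, with the mean CPM over days 0 and 6 on a log10 axis (CPM + 0.01) and the log2 fold change of day 6 over day 0. Red points are the 1177 genes called higher, blue points the 800 called lower and grey points the rest, and circled genes are described in the text. The lower calls reach further from 0 than the higher calls over most levels, and CYP11A1 lies among the genes not called.

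These counts changed when single libraries were left out, which also leaves the test with fewer samples. Leaving out the day 0 libraries numbered 1, 2 and 3 gave 112, 354 and 2149 calls, and leaving out the day 6 libraries numbered 1, 2 and 3 gave 620, 511 and 657. When the libraries were scaled by their totals only, 541 genes were called higher and 1454 lower, because this scaling moved the median log2 FC of all genes by -0.3957. A count of higher against lower genes thus depends on how the libraries are scaled. Of the 17 gene lists described below, 15 had 0 calls without the day 0 library numbered 1, and of the other 2 lists FST, a gene that rose, and CTSL, a gene that fell, were called. The lists of fibrous stroma, cell division, ciliated epithelium, other epithelium and red blood cells had 0 calls with all libraries as well. Of the 54 called genes that were chosen by rule to be described here, 4 were called in all 6 fits without 1 library, 23 in 1 of them and 6 in 0.

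The 10 largest rises among separate genes with a symbol included enzymes, transporters and receptors. CPS1, which makes carbamoyl phosphate from ammonia in mitochondria, had 1, 1 and 0 counts on day 0 and 435, 396 and 883 counts on day 6, or 42, 37.6 and 75.2 CPM. The ratio of its counts per library size was 975 (exact 95% interval 269 to 8057, which covers counting error only, since the reads carry no molecular identifiers), with a log2 FC of 9.64 ± 2.10 (SE) and an edgeR adjusted p of 0.014. It was close to absent in all 3 ovaries at oestrus and present in all 3 on day 6. RHCG, an ammonia transporter of epithelia, had 2.24, 0.332 and 0.239 CPM on day 0 and 101, 541 and 190.2 CPM on day 6. Its mean was 296-fold higher (log2 FC 8.19 ± 1.43, edgeR adjusted p = 0.0083), and it was called in each of the 6 fits that left out 1 library. ALOX15, a lipoxygenase that adds oxygen to arachidonic and linoleic acid, had 0.56, 1.99 and 4.06 CPM on day 0 and 227, 435 and 533 CPM on day 6, a 181-fold higher mean (log2 FC 7.49 ± 1.93, edgeR adjusted p = 0.023), and was called in 2 of the 6 fits. FMO1, a flavin-containing monooxygenase, was abundant on day 6, with 985, 1124 and 2218 CPM against 14.8, 6.98 and 15.6 CPM on day 0. Its mean rose 116-fold (log2 FC 6.85 ± 1.52, edgeR adjusted p = 0.014), and the lowest day 6 library was far above the highest of day 0. CPS1 and FMO1 were each called in 4 of the 6 fits.

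KCNK3, a potassium leak channel, had 2.48, 3.57 and 0.398 CPM on day 0 and 291, 144 and 137 CPM on day 6 (log2 FC 6.47 ± 1.53, edgeR adjusted p = 0.018). ADRB1, the beta-1 adrenergic receptor, had 0.32, 1.41 and 0.239 CPM on day 0 and 43.9, 62.5 and 46.4 CPM on day 6 (log2 FC 6.26 ± 1.36, edgeR adjusted p = 0.013). DIO1, a deiodinase that activates thyroid hormone, had 1 count over the 3 libraries of day 0 and 14, 30 and 49 counts on day 6. Its ratio was 106 with a wide interval of 18.5 to 4223, and it too was called in all 6 fits without 1 library. OLFM2, a secreted olfactomedin protein, rose by a log2 FC of 6.89 (from at most 1.03 CPM to between 35.7 and 118 CPM). C18orf63, with 1 count on day 0 and 10, 29 and 107 counts on day 6, had a ratio of 166 (exact interval 29.3 to 6604). TMPRSS7, a membrane serine protease, was spread from 5.03 to 65.8 CPM on day 6 around a log2 FC of 7.15, and it was not called in any fit without 1 of the 6 libraries.

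**Figure D2:**
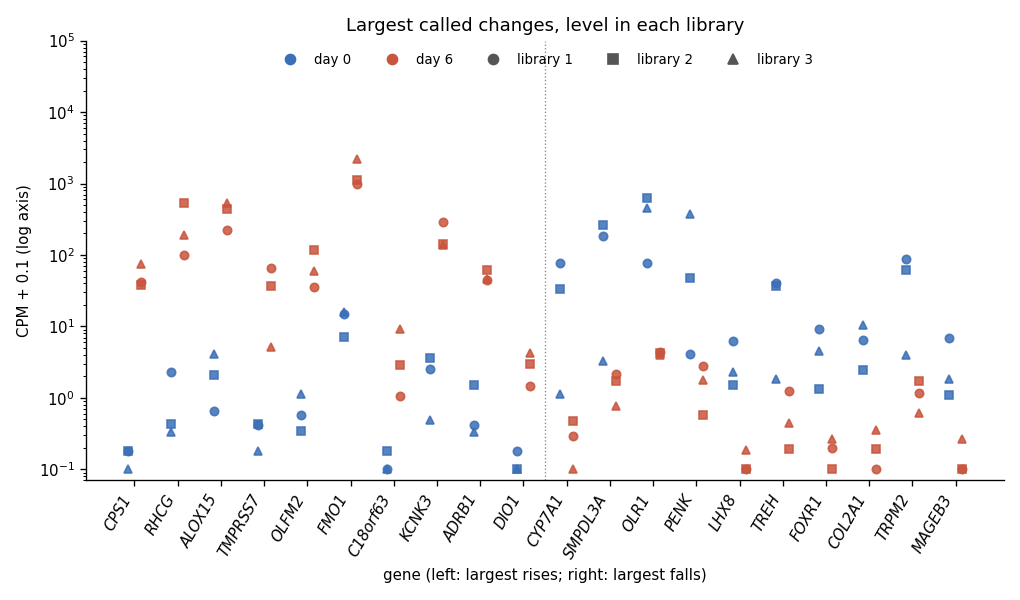
The plot gives CPM + 0.1 on a log axis in each library for the 10 largest rises (left) and the 10 largest falls (right) that were called, had a symbol and had no overlap. Blue is day 0, red is day 6 and the shape gives the library number. Most rises start near or below 1 CPM in all 3 day 0 libraries, while in CYP7A1, SMPDL3A, TREH and TRPM2 the day 0 library numbered 3 (triangle) lies near the day 6 values.

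The largest falls were of another kind, since most of them differed between the libraries of day 0. OLR1, a lectin-like scavenger receptor, had the call that was most stable when 1 library was left out. It also differed between the libraries of day 0, with 76.8, 634 and 448 CPM, against 4.25, 4.09 and 3.92 CPM on day 6. Its mean was 94.6-fold lower (log2 FC -6.56 ± 1.39, edgeR adjusted p = 0.013), it was called in all 6 fits without 1 library, and without the day 0 libraries numbered 1 and 2 its log2 FC was -6.77. PENK, the precursor of enkephalin peptides, had 4, 47.9 and 372 CPM on day 0 and 2.7, 0.475 and 1.7 CPM on day 6 (log2 FC -6.43 ± 1.86, edgeR adjusted p = 0.034). The day 0 library numbered 1 was close to day 6, and without the one numbered 3 the log2 FC of PENK was -3.99. COL2A1, a collagen of cartilage, had 6.4, 2.33 and 10.3 CPM on day 0 and at most 0.256 CPM on day 6 (log2 FC -5.59). PENK and COL2A1 were called in 0 of the 6 fits without 1 library.

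In a further group the day 0 library numbered 3 was low, as it was for the leukocyte markers. CYP7A1, the rate-limiting enzyme of bile acid synthesis, had 78, 33 and 1.03 CPM on day 0 and 0.193, 0.38 and 0 CPM on day 6. SMPDL3A, a phosphodiesterase related to acid sphingomyelinase, had 182, 260.4 and 3.18 CPM on day 0 and 2.03, 1.62 and 0.682 CPM on day 6. TRPM2, a cation channel opened by oxidative stress, had 86.7, 62.1 and 3.9 CPM on day 0 and 1.06, 1.62 and 0.511 CPM on day 6, and TREH, the enzyme that splits trehalose, had 40.6, 36.8 and 1.75 CPM on day 0 and at most 1.16 CPM on day 6. All 4 were called, with log2 FC of -7.57, -6.68, -5.58 and -5.62. Without the day 0 libraries numbered 1 and 2 these values were -2.4, -1.14, -1.87 and -1.71 and none was called. By in situ hybridization, the study located CYP7A1 RNA in ovarian follicles, mainly in granulosa cells. The part of leukocyte RNA in the 4 falls was not tested.

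Genes of the oocyte mostly had lower values on day 6. Of 12 tested genes of this list, 0 were higher and 2 were lower by the test, against a background of 5.12% lower calls. The median log2 FC was -3.3, against -0.04 over all genes, and in 9 of the 12 genes all day 6 libraries lay below all day 0 libraries, as in 18.7% of all genes. ZAR1, a maternal factor that acts at the first divisions of the embryo, had 16.5, 2.33 and 9.78 CPM on day 0 and 0.0965, 0.095 and 0.597 CPM on day 6 (log2 FC -5.09 ± 1.54, edgeR adjusted p = 0.04). MOS, the kinase that holds the egg in meiotic arrest, had 13.3, 2.16 and 5.49 CPM on day 0 and 0.386, 0.285 and 1.02 CPM on day 6 (log2 FC -3.59 ± 0.90, edgeR adjusted p = 0.021). The coat proteins of the egg were also low on day 6 without passing the test. ZP3 had 65.2, 4.82 and 31.1 CPM on day 0 and 0.965, 0.095 and 4.52 CPM on day 6 (edgeR adjusted p = 0.1), and ZP4 had 17.4, 4.07 and 16.6 CPM against 0.483, 0 and 2.05 CPM (edgeR adjusted p = 0.099). For both genes the lowest day 0 value was that of the library numbered 2, and all day 6 values were below it. KIT, a receptor that follicle cells and other cells also carry, was the exception of the list, with 67.9, 294 and 238 CPM on day 0 and 389, 439.7 and 599 CPM on day 6 (edgeR adjusted p = 0.12).

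Of the 10 largest falls, 3 had at most 3 counts over the libraries of day 6. LHX8, a homeobox factor of early oocytes, had 76, 17 and 28 counts on day 0 and 0, 0 and 1 on day 6, which is a ratio of day 0 over day 6 of 106 (exact interval 18.7 to 4236, log2 FC -6.31, edgeR adjusted p = 0.026). FOXR1, a forkhead factor, had 115, 15 and 56 counts on day 0 and 1, 0 and 2 on day 6 (ratio 54.5, interval 18.4 to 267). MAGEB3, of a gene family that is mostly expressed in testis and whose members resemble one another so that reads may be shared, had 85, 12 and 22 counts on day 0 and 0, 0 and 2 on day 6 (ratio 52.3, interval 14.2 to 437). In all 3 genes, as in ZAR1, MOS and ZP3, the day 0 library numbered 1 held the most counts and the one numbered 2 the fewest. The number of calls in the oocyte list was 0 without the day 0 library numbered 1, and 0 without either of the day 6 libraries numbered 1 and 2. These calls were thus not kept in every fit with 1 library fewer, while the median log2 FC stayed between -4.31 and -2.72.

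Genes of the oestrogen-producing follicle mostly had lower values on day 6, but the spread between the day 0 ovaries was large. Of 17 tested genes, 1 was higher and 3 were lower by the test, against 7.53% and 5.12% of all genes, and 15 had a negative log2 FC (median -2.43). DESeq2's Wald test called 1 higher and 8 lower. The number of lower calls was 0 without the day 0 library numbered 1 or the day 6 library numbered 2, and between 1 and 4 in the other fits without 1 library. CYP17A1 had 76.9, 2805 and 2404 CPM on day 0 and 164, 156 and 61.7 CPM on day 6 (log2 FC -3.79 ± 1.64, edgeR adjusted p = 0.12), and INHA had 76.2, 3059 and 7107 CPM against 801, 532 and 379 CPM (log2 FC -2.58 ± 1.59, edgeR adjusted p = 0.28). In both genes the day 0 library numbered 1 lay within or below the range of day 6, so the groups overlapped, and without the day 0 library numbered 3 the log2 FC of INHA was -1.46. INSL3, a peptide hormone of theca cells, did not overlap, with 31.3, 283 and 244 CPM on day 0 and 1.06, 2 and 2.22 CPM on day 6 (log2 FC -6.71 ± 2.49, edgeR adjusted p = 0.079). FSHR had 0.965, 0.19 and 1.19 CPM on day 6 (log2 FC -3.61 ± 2.02, edgeR adjusted p = 0.23), and its day 0 library numbered 2, at 1.08 CPM, lay among these.

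The 3 called falls of this list were small or came from genes of low level. SLC18A2, a vesicular transporter of monoamines, had 3.92, 1.58 and 1.19 CPM on day 0 and 0.193, 0.19 and 0.341 CPM on day 6 (log2 FC -3.14 ± 0.68, edgeR adjusted p = 0.013). IGF1, a growth factor of granulosa cells, had 26.3, 17 and 16.2 CPM on day 0 and 5.21, 9.79 and 11.6 CPM on day 6 (log2 FC -1.16, edgeR adjusted p = 0.024). HTRA1, a secreted serine protease, was called with overlapping groups, at 1455, 1937 and 494 CPM on day 0 and 515, 488 and 373 CPM on day 6. Its log2 FC was -1.5, and without the day 0 libraries numbered 1 and 2, which also held high leukocyte markers, it was -0.1. FST, or follistatin, which binds and blocks activin, was the 1 gene of the list that rose. It had 21.9, 12.5 and 35.1 CPM on day 0 and 379, 334 and 343 CPM on day 6, which is 15.2-fold higher (log2 FC 3.93 ± 0.62, edgeR adjusted p = 0.0061). No gene of the comparison had a smaller adjusted p, and FST was called in all 6 fits without 1 library.

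Of 14 tested genes of luteal steroidogenesis 2 were called higher and 0 lower, a share of 14.3% that is near the 12.6% of all genes, and 8 had a positive log2 FC. The median log2 FC was 0.684, and in 7 of the 14 genes all day 6 libraries lay above all day 0 libraries, as in 21.2% of all genes. FDXR, which hands electrons to the side-chain cleavage enzyme in mitochondria, had 35.8, 75.7 and 60.9 CPM on day 0 and 773, 579 and 491 CPM on day 6, a 10.7-fold higher mean (log2 FC 3.42 ± 0.82, edgeR adjusted p = 0.019). LIPE, a lipase that frees cholesterol from its stored esters, had 7.44, 8.39 and 15.3 CPM on day 0 and 42.4, 32.7 and 30.4 CPM on day 6 (log2 FC 1.76 ± 0.56, edgeR adjusted p = 0.047). FDXR lost its call without the day 0 library numbered 1 or the one numbered 2, and LIPE was called in 1 of the 6 fits without 1 library, the one that left out the day 0 library numbered 3.

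The best-known genes of the list were separate but not called. CYP11A1 had 278, 1846 and 2223 CPM on day 0 and 5805, 5559.9 and 4346 CPM on day 6, a 3.61-fold higher mean (log2 FC 1.85 ± 1.18, edgeR adjusted p = 0.29). SCARB1, the receptor for high-density lipoprotein, had 296, 1050.3 and 2219 CPM on day 0 and 7822, 5665 and 5071 CPM on day 6 (log2 FC 2.38 ± 1.04, edgeR adjusted p = 0.13). In both genes the day 0 library numbered 1 was the lowest of all, and those numbered 2 and 3 were nearer to day 6. LHCGR, the receptor for luteinizing hormone, had 2.48, 19.3 and 7 CPM on day 0 and 92, 23.9 and 21.3 CPM on day 6 (log2 FC 2.25 ± 0.86, edgeR adjusted p = 0.087). Its log2 FC was 1.24 without the day 6 library numbered 1. NR5A2, a nuclear receptor that drives steroid genes, had 11, 169.7 and 259 CPM on day 0 and 1194, 974 and 922 CPM on day 6 (log2 FC 2.81 ± 1.12, edgeR adjusted p = 0.098).

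Genes of cholesterol synthesis had higher values on day 6 throughout the list, with a median log2 FC of 2.09. Of 17 tested genes 3 were called higher (17.6%, against 7.53% of all genes) and 0 lower, 17 had a positive log2 FC, and 16 were separate with day 6 above, against 21.2% of all genes. DESeq2's Wald test called 11 higher and the edgeR fit of days 0 and 6 only called 12, while without the filter on low counts 1 was called. MVK, the mevalonate kinase, had 11.5, 22.5 and 42.6 CPM on day 0 and 359.6, 200.1 and 196 CPM on day 6 (log2 FC 3.30 ± 0.99, edgeR adjusted p = 0.039). ACAT2, which joins acetyl groups at the start of the pathway, had 9.6, 14.1 and 59.3 CPM against 289, 145 and 143 CPM (log2 FC 2.80 ± 0.89, edgeR adjusted p = 0.048). NSDHL, a sterol dehydrogenase near its end, had 31.8, 32.1 and 65.2 CPM on day 0 and 223, 123 and 116 CPM on day 6 (log2 FC 1.84 ± 0.52, edgeR adjusted p = 0.032). In all 3 genes the lowest library of day 6 lay above the highest of day 0.

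HMGCS1, a synthase early in the pathway, had 82.3, 218 and 484 CPM on day 0 and 3340.2, 1455 and 2172 CPM on day 6 (log2 FC 3.15 ± 1.19, edgeR adjusted p = 0.083). TM7SF2, a sterol reductase, had 12.7, 39.1 and 85.6 CPM against 930.4, 382 and 294 CPM (log2 FC 3.55, edgeR adjusted p = 0.091), the largest difference of the list. The 1 gene that overlapped was HSD17B7, at a log2 FC of 1.39. The day 0 libraries were ordered alike in HMGCS1, MVK, ACAT2, NSDHL and TM7SF2, with the one numbered 1 lowest and the one numbered 3 highest. Summed over the list, the level in the day 0 library numbered 3 was also the highest of day 0 and below every library of day 6. With the day 0 library numbered 1 left out, 0 genes of the list were called, as without the one numbered 2 or any 1 library of day 6, while without the one numbered 3, 7 were called. The median log2 FC was between 1.71 and 3.08 in these fits and 1.29 without the day 0 libraries numbered 1 and 2.

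**Figure D3:**
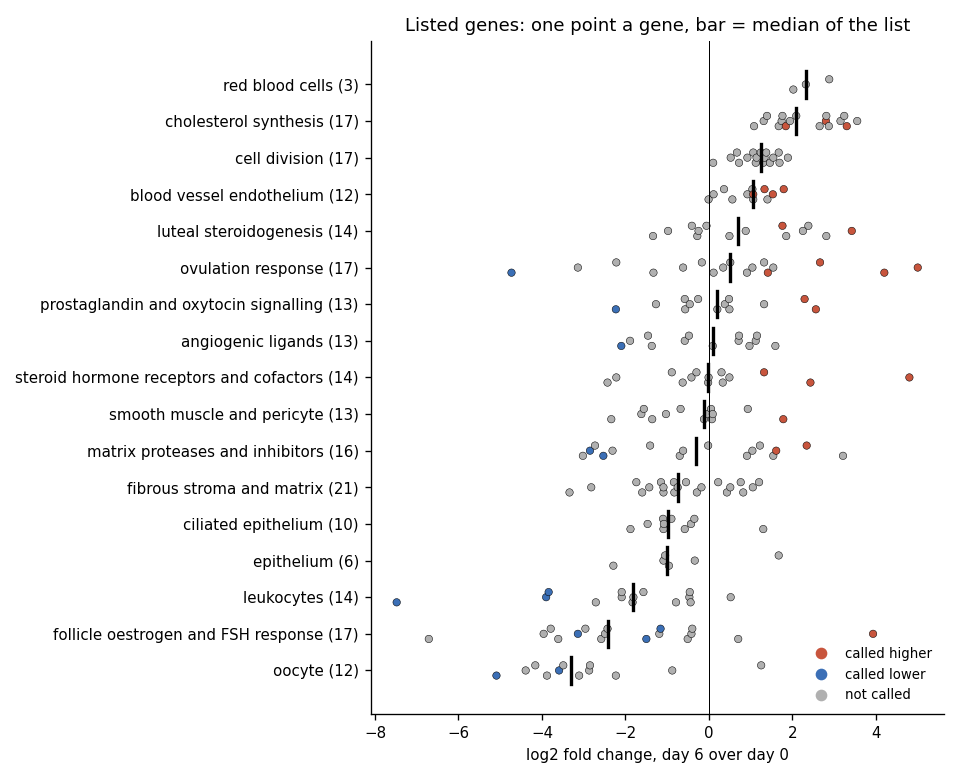
Each point is a tested gene of a list (number of genes in brackets) at its log2 fold change of day 6 over day 0, and the black bar is the median of the list. Red points were called higher, blue points lower and grey points were not called. Cholesterol synthesis lies wholly above 0, and the oocyte and follicle lists lie mostly below it with few calls.

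Genes that the ovulatory surge is known to induce went both ways. Of 17 tested genes, 4 were called higher and 1 lower, against 7.53% and 5.12% of all genes, with a median log2 FC of 0.509. PTGES, a synthase of prostaglandin E2, had 21.2, 93.6 and 70.7 CPM on day 0 and 2083, 2188 and 1661 CPM on day 6, a 32-fold higher mean (log2 FC 5.0 ± 1.08, edgeR adjusted p = 0.013). PTGS2, the inducible cyclooxygenase upstream of it, stayed low in all 6 libraries, from 1.9 to 3.75 CPM. PTX3, a matrix protein of the expanded cumulus, had 25.4, 32.8 and 157 CPM on day 0 and 696, 1542 and 1718 CPM on day 6 (log2 FC 4.20 ± 1.04, edgeR adjusted p = 0.02). ANGPTL4, a secreted inhibitor of lipoprotein lipase, had 238, 276 and 126 CPM against 2031, 1075 and 947 CPM (log2 FC 2.66, edgeR adjusted p = 0.044), and VCAN, the matrix proteoglycan versican, rose by a log2 FC of 1.41.

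The gene that fell in this list was CTSL, a lysosomal cathepsin, with 95.2, 702 and 1800.2 CPM on day 0 and 43.6, 19.6 and 34.9 CPM on day 6, a 26.5-fold lower mean (log2 FC -4.73 ± 1.11, edgeR adjusted p = 0.017). PGR, the progesterone receptor, had 3.84, 153 and 144 CPM on day 0 and 28.4, 20 and 16.1 CPM on day 6 (log2 FC -2.22 ± 0.92, edgeR adjusted p = 0.11), with the day 0 library numbered 1 below all of day 6. The same library stood apart in AREG, a ligand of the epidermal growth factor receptor that relays the surge, with 0.4, 156 and 421 CPM on day 0 and 122, 196 and 504 CPM on day 6 (log2 FC 0.51, edgeR adjusted p = 0.86). Leaving that library out gave 0 higher and 1 lower gene in this list and a median of -0.00149.

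Several genes of blood vessels rose. Of 12 tested endothelial genes, 4 were called higher (33.3%, against 7.53% of all genes) and 0 lower, with a median log2 FC of 1.05. KDR, the main receptor for vascular endothelial growth factor, had 79.5, 116 and 135 CPM on day 0 and 344, 470.1 and 328 CPM on day 6, a 3.46-fold higher mean (log2 FC 1.79 ± 0.43, edgeR adjusted p = 0.018). ESAM, an adhesion molecule of endothelial junctions, had 7.44, 8.89 and 13.8 CPM against 35.8, 29.8 and 21.2 CPM (log2 FC 1.53, edgeR adjusted p = 0.017). ROBO4 and EGFL7, also of endothelium, rose by log2 FC of 1.33 and 1.06. PECAM1, a general endothelial marker, had 185, 213 and 186 CPM on day 0 and 512, 416 and 275 CPM on day 6 (log2 FC 1.04, edgeR adjusted p = 0.08), whereas ERG, an endothelial transcription factor, stayed between 31.3 and 46.4 CPM in all 6 libraries (log2 FC -0.01). The number of calls was 0 without the day 0 library numbered 1 or the one numbered 2 and at most 3 in the other fits without 1 library, and the median stayed between 0.885 and 1.15.

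The ligands of vessel growth went both ways. Of 13 tested genes 0 were higher and 1 was lower, against 7.53% and 5.12% of all genes, with a median log2 FC of 0.085. The share called, 7.69%, was below the 12.6% of all genes. VEGFA, the ligand of KDR, had 22.6, 35.4 and 42.7 CPM on day 0 and 102, 86.5 and 115 CPM on day 6, separate but not called (log2 FC 1.59 ± 0.62, edgeR adjusted p = 0.091). THBS2, an inhibitor of angiogenesis in the matrix, was called lower, with 182, 225 and 51.5 CPM on day 0 and 26, 33.4 and 47.6 CPM on day 6 (log2 FC -2.10, edgeR adjusted p = 0.048). Here again the day 0 library numbered 3 lay next to day 6, and without the day 0 libraries numbered 1 and 2 the log2 FC was -0.52. Among 13 genes of smooth muscle and pericytes, 1 was called (7.69%, against 12.6% of all genes). It was KCNJ8, a potassium channel of pericytes (log2 FC 1.78), and the median of this list was -0.118.

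Among 16 proteases of the matrix and their inhibitors, 2 were called higher and 2 lower, against 7.53% and 5.12% of all genes, and 0 were called without the day 0 library numbered 1, the day 0 library numbered 2 or the day 6 library numbered 2. MMP2 and MMP14, a gelatinase and the membrane protease that activates it, both fell. MMP2 had 3731, 2029 and 522 CPM on day 0 and 181, 363 and 328 CPM on day 6 (log2 FC -2.85 ± 0.70, edgeR adjusted p = 0.019), and MMP14 had 1441, 1034 and 243 CPM against 141, 188 and 142 CPM (log2 FC -2.53 ± 0.67, edgeR adjusted p = 0.026). Both were highest in the 2 day 0 libraries that also held high leukocyte markers. Without these 2 libraries the log2 FC was -0.84 for MMP2 and -0.62 for MMP14, and the part of leukocytes in the falls was not tested. ADAMTS9, a protease that cleaves versican, had 18.3, 38.2 and 72.7 CPM on day 0 and 161, 299 and 196 CPM on day 6 (log2 FC 2.34 ± 0.57, edgeR adjusted p = 0.019), and MMP15 rose by a log2 FC of 1.61. TIMP1, an inhibitor of these proteases, had 373, 2094 and 2731 CPM on day 0 and 13310.1, 17252 and 17593 CPM on day 6 (log2 FC 3.21 ± 1.30, edgeR adjusted p = 0.1).

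Of 21 genes tested for fibrous stroma and matrix, 0 were called in the edgeR fit of all ovary libraries and 7 had an unadjusted p under 0.05. DESeq2's Wald test called 5 lower and 1 higher, and edgeR called 4 lower with the libraries of days 0 and 6 only, 2 lower with library totals only, and 1 higher and 1 lower without the day 0 library numbered 3. The median log2 FC was -0.749, and 8 genes were separate with day 6 below, against 18.7% of all genes. Decorin (DCN), a proteoglycan that binds collagen, had 1199.9, 1082 and 1018 CPM on day 0 and 260, 343 and 382 CPM on day 6 (log2 FC -1.74 ± 0.73, edgeR adjusted p = 0.11). COL4A2, a collagen of basement membranes, had 1294, 1682 and 2424 CPM against 4082, 4894 and 2237 CPM (log2 FC 1.05, edgeR adjusted p = 0.07).

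In prostaglandin and oxytocin signalling, 2 of 13 tested genes were higher and 1 was lower, against 7.53% and 5.12% of all genes, with a median log2 FC of 0.202. SLCO2A1, which takes up prostaglandins for breakdown, had 6.48, 10.7 and 23.8 CPM on day 0 and 37.8, 98.9 and 63.5 CPM on day 6 (log2 FC 2.29 ± 0.62, edgeR adjusted p = 0.028). EDNRB, an endothelin receptor, had 20.1, 28.6 and 10.6 CPM against 29.1, 79.8 and 241 CPM (log2 FC 2.56, edgeR adjusted p = 0.041), and without the day 6 library numbered 3 its log2 FC was 1.46. PTGER4, a receptor for prostaglandin E2, was called lower with overlapping groups, at 23.6, 18.1 and 3.42 CPM on day 0 and 3.38, 4.09 and 2.13 CPM on day 6, and without the day 0 libraries numbered 1 and 2 its log2 FC was -0.09. OXT, the oxytocin gene, was too low to be tested, with 0 counts in the 3 libraries of day 6.

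Of 14 steroid receptors and cofactors, 3 were called higher, against 7.53% of all genes, and 0 lower. HSD11B2, which inactivates cortisol, had 0.72, 0.748 and 0.477 CPM on day 0 and 40.3, 7.13 and 7.84 CPM on day 6, a 28.4-fold higher mean (log2 FC 4.80 ± 1.44, edgeR adjusted p = 0.038). HSD11B1, which acts in the opposite direction, had 32, 26.8 and 36.3 CPM against 13.4, 13.9 and 24 CPM (log2 FC -0.89, edgeR adjusted p = 0.07). PGRMC1, a membrane protein that binds progesterone, had 195, 266 and 549 CPM on day 0 and 2073, 1653 and 1701 CPM on day 6 (log2 FC 2.43 ± 0.68, edgeR adjusted p = 0.031), while the related PGRMC2 had from 68.3 to 95.4 CPM over the 6 libraries and was not called (log2 FC 0.33). FKBP5, a target gene of the glucocorticoid and progesterone receptors, rose by a log2 FC of 1.32. HSD11B2 was called in none of the 6 fits that left out 1 library, and its level was highest in the day 6 library numbered 1.

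Leukocyte markers had high values in the day 0 libraries numbered 1 and 2 and lower ones in the other 4 libraries. Of 14 tested genes, 0 were higher and 3 were lower, against 5.12% of all genes, with a median log2 FC of -1.82. LYZ, the lysozyme of macrophages and neutrophils, had 5138, 4752 and 19.7 CPM on day 0 and 40.6, 6.84 and 8.01 CPM on day 6 (log2 FC -7.48 ± 2.3, edgeR adjusted p = 0.042), so that the groups overlapped. CD68, a macrophage marker, had 223, 149.7 and 8.03 CPM against 11.1, 9.31 and 5.03 CPM (log2 FC -3.90, edgeR adjusted p = 0.032), and ITGAM, an integrin of myeloid cells, had 73.8, 20.4 and 6.84 CPM against 1.35, 2.66 and 2.98 CPM (log2 FC -3.84, edgeR adjusted p = 0.019). The general marker PTPRC followed the same libraries, with 165, 133 and 11.5 CPM on day 0 and from 11.3 to 19.8 CPM on day 6. MRC1, a receptor of resident macrophages, did not, with 59.2, 40.7 and 40.9 CPM on day 0 and from 22.3 to 42.5 CPM on day 6. With the day 0 libraries numbered 1 and 2 left out, the median of the list was -0.00457, LYZ had a log2 FC of -0.09 and CD68 of 0.08, and without the library numbered 1 alone ITGAM had one of -2.54.

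All 17 genes tested for cell division had a positive log2 FC (median 1.24), but 0 were called in the edgeR fit of all ovary libraries or by DESeq2's Wald test, and 1 had an unadjusted p under 0.05. The edgeR fit of days 0 and 6 only called 3 higher. TOP2A, a topoisomerase of dividing cells, had 49.1, 24.4 and 53.5 CPM on day 0 and 159, 105 and 65.4 CPM on day 6 (log2 FC 1.37 ± 1.02, edgeR adjusted p = 0.37). Of the other cell types that an ovary sample could hold, 10 markers of ciliated epithelium, 6 of other epithelium and 3 of red blood cells gave 0 calls in the same fits, with 0, 1 and 2 at an unadjusted p under 0.05. With the libraries of days 0 and 6 only, 1 ciliated marker was called higher, and of the other epithelial markers 1 was called higher and 2 lower. OVGP1, a secretory protein known from the oviduct, had 469, 1847 and 667 CPM on day 0 and 779, 611 and 208 CPM on day 6, without separation of the days. The 4 red blood cell markers with an identifier summed to between 6.98 and 13.8 CPM on day 0 and to 111, 22.6 and 5.71 CPM on day 6, so the day 6 libraries differed in them.

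The same genes on the other days of the cycle are given as values beside those of day 6, since every comparison shares the 3 libraries of day 0. Against day 0, 0.179% of the genes tested were called on day 3, 8.6% for day 9, 9.26% for day 12 and 0.0256% for day 15, against 12.6% for day 6. For day 18, edgeR called 0 genes. The median log2 FC of the cholesterol synthesis list was 2.23 on day 3, with 2.26 for day 9, 2.49 for day 12, 0.755 for day 15 and -0.261 for day 18. HMGCS1 had 1831 and 3547 CPM in the 2 libraries of day 3 and from 2031 to 2751 CPM on day 9, and its median was 580.4 CPM on day 15 and 88.4 CPM on day 18. The median of this gene was thus already high on day 3 and within the range of day 0 on day 18. The median of the endothelial list was 0.0438 on day 3, 1.05 on day 6 and 0.693 on day 9, and that of the oocyte list was -1.46, -3.3 and -2.95.

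Other genes were still low on day 3. ALOX15 was at 0.403 and 0.509 CPM in the 2 libraries of day 3, below all 3 libraries of day 0, and had medians of 403 CPM on day 9 and 350 CPM on day 12, although 1 library each of days 9 and 12 had as little as 2.56 and 0.391 CPM. FMO1 was at 127 and 164 CPM on day 3, between the days compared here, and at 2011 to 2076 CPM on day 9. RHCG had its highest values on day 6: it ranged from 3.48 to 5.23 CPM on day 3, from 45 to 74.5 CPM on day 9 and from 0.86 to 36.1 CPM on day 12, against at least 101 CPM on day 6. KCNK3 was at 196 and 214 CPM on day 3, within the range of day 6. Among the falls, OLR1 was at 1.19 and 11.9 CPM on day 3 and from 2.42 to 5.85 CPM on days 9 and 12, and it had medians of 23.4 CPM on day 15 and 80.2 CPM on day 18.

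**Figure D4:**
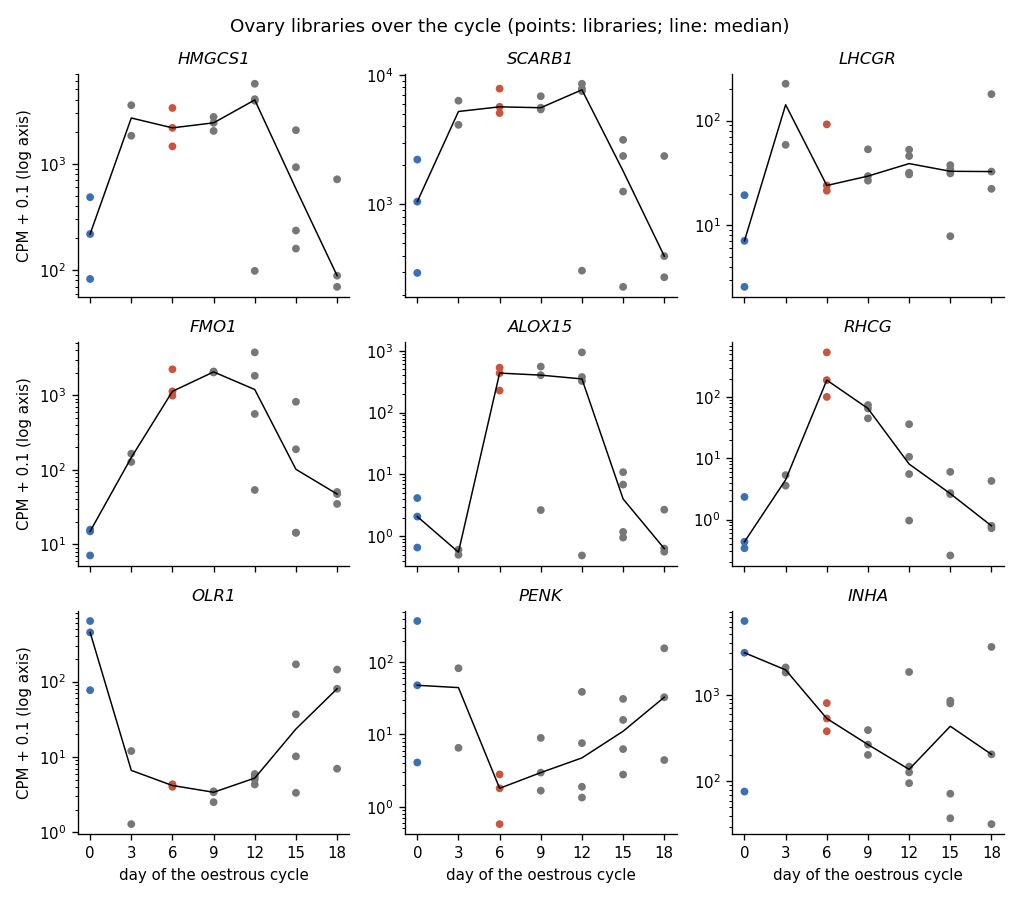
CPM + 0.1 on a log axis is plotted against the day of the cycle for 9 genes, with 1 point for each of the 22 ovary libraries and a line through the medians. Day 0 is blue and day 6 is red. HMGCS1 and SCARB1 have high medians from day 3 to day 12, ALOX15 rises between days 3 and 6, RHCG has its highest values on day 6, and 1 library of day 12 lies apart in several genes.

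To see where the ovary differed from the rest of the reproductive tract, its change was tested against the mean change of the endometrium and the oviduct between the same days. The fit used all 17 libraries of days 0 and 6 of the 3 tissues, of which the oviduct on day 6 had 2, and tissues may come from the same gilts. It took 1 spread for each gene from all 3 tissues. The SE of the difference can thus lie below that of the ovary's change alone, as in HMGCS1 (0.7 against 1.19). These p-values are therefore no stronger evidence of a change in the ovary. Of 16130 genes tested, 4419 (27.4%) differed, 2376 (14.7%) with a more positive change in the ovary and 2043 (12.7%) with a more negative one. Between days 0 and 6 the share of genes called was 17.7% in the endometrium and 2.16% in the oviduct, against 12.6% in the ovary.

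For FMO1 the ovary rose more. In the endometrium it lay between 73.9 and 156 CPM on day 0 and between 199.5 and 247 CPM on day 6 (log2 FC 0.93, edgeR adjusted p = 0.29), and its change in the ovary was larger by 5.59 ± 0.57 on the log2 scale (edgeR adjusted p = 2.8e-05). For OLR1 the ovary fell more, by -5.71 ± 0.72 relative to the other tissues (edgeR adjusted p = 0.00012), where it lay between 1.91 and 9.56 CPM on both days. PENK went the other way in the endometrium, from between 0.401 and 1.05 CPM on day 0 to between 12.6 and 18 CPM on day 6 (log2 FC 4.36, edgeR adjusted p = 0.048), and the difference was -9.83 ± 1.53 (edgeR adjusted p = 0.00052). RHCG did not differ by this test. It rose in the endometrium by a log2 FC of 9.48 (edgeR adjusted p = 0.00012) and in the oviduct by 4.22 (edgeR adjusted p = 0.032), and the ovary's change exceeded the mean of the others by 1.36 ± 2.13 (edgeR adjusted p = 0.68).

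HMGCS1 rose in the endometrium, by a log2 FC of 2.62 (edgeR adjusted p = 0.0068), and had a log2 FC of -1.84 in the oviduct (edgeR adjusted p = 0.064). The ovary's change, which was not called by itself, was more positive than their mean by 2.77 ± 0.7 (edgeR adjusted p = 0.0098). Over the cholesterol synthesis list, 8 of 17 genes were called higher in the endometrium and 1 of 17 lower in the oviduct, and 10 of 17 had a more positive change in the ovary, against 14.7% of all genes. In the endothelial list 9 of 12 did, with 7 of 12 called lower in the endometrium. SCARB1 had log2 FC of 0.32 in the endometrium and 0.21 in the oviduct and differed from the ovary by 2.12 ± 0.56 (edgeR adjusted p = 0.013), although its change in the ovary itself was not called in the fit of the ovary libraries. CYP17A1, also not called in that fit, changed more negatively in the ovary by -4.34 ± 1.31 (edgeR adjusted p = 0.024). In the endometrium CYP17A1 had at most 1.13 CPM on these days. CPS1 stayed at or below 0.224 CPM in the endometrium and 1.4 CPM in the oviduct, and its change in the ovary was larger by 7.95 ± 1.22 (edgeR adjusted p = 0.00046).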

How the data were processed

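RNA of the endometrium, ovary and oviduct of gilts was sequenced on 7 days of the oestrous cycle. Per the labels and the study's methods, the authors made libraries with a TruSeq mRNA kit, trimmed the first 13 bases of each read and mapped the reads with TopHat2 to the pig genome and its Ensembl annotation. The authors deposited the raw counts, whole numbers of reads for each Ensembl gene, neither normalized nor pooled. The submitters' processing notes list FastQC, featureCounts, Cufflinks, Cuffdiff and edgeR, and whether counting used strand is not given in the sources used here, so reads of overlapping and antisense genes may be shared. The study tested FPKM with Cuffdiff, and no FPKM was used in this comparison.

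The table holds 66 libraries and 25322 genes, of which 3376 had no count. A column names its tissue and day, and its number was used as the name of the library. The labels list 67 samples, and 1 further sample of the endometrium on day 12 was not analysed here. Symbols came from a reference table, which paired 11802 identifiers. The study's methods give 3 gilts per day and the labels tie no library to a gilt, so p-values measure the spread between these samples. The ovary had 4 libraries on day 12 and 4 on day 15, more than the 3 gilts. Whether some of them share a gilt is not known, and the fit took all libraries as independent. No 2 libraries compared here had counts that agreed within sampling noise (chi-squared per degree of freedom from 39.4 to 170). Total counts over all 66 libraries were between 8962103 and 13442083.

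The 22 ovary libraries entered 1 model, in which each day was a level, in edgeR 4.0.16 (R 4.3.3), with TMM, filterByExpr, estimateDisp and glmQLFit with robust estimation. Day 6 was tested against day 0 with glmQLFTest and Benjamini-Hochberg adjustment over all genes tested, and genes under 0.05 were called. The SE was taken from the log2 FC and the root of its F statistic. Fold values are ratios of mean CPM. Where a group held 1 to 3 counts in all, the ratio of summed counts is given with its exact 95% interval. On simulated counts with 200 genes changed by known folds, this test recovered 6 of 68 genes changed by 1, 34 of 66 changed by 2 and 53 of 66 changed by 3 on the log2 scale, with 1 false call among 15369 genes, and 0 genes were called without a change.

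The members and the gene lists were chosen with earlier results of these data known. Genes were named by 3 rules: the 10 largest rises and falls among called genes with a symbol, no overlap and 10 counts or more in all libraries of the higher group, up to 4 called genes of each list with the largest change, and a list of known genes of the follicle and corpus luteum whatever their change. Other genes of the lists (INSL3, NR5A2, ZP3, ZP4, KIT, TM7SF2, VCAN, PTGS2, AREG, PECAM1, ERG, DCN, COL4A2, TIMP1, HSD11B1, PGRMC2, PTPRC, MRC1, TOP2A, OVGP1 and HSD17B7) are named for their role and were chosen after their values were seen. Some genes are not reported here and were left out of the lists. Alternatives were DESeq2 1.42.0 with its Wald test, edgeR with the size factors of DESeq2, a fit without the filter, a fit of the libraries of days 0 and 6 only, a block for the replicate number, and fits without 1 of the 6 libraries. The difference between tissues was fitted with 1 group for each tissue and day. Scaling by library totals only and leaving out both day 0 libraries numbered 1 and 2 were added after seeing the data. Python 3.11.15 with pandas 2.3.3, scipy 1.17.1 and matplotlib 3.10.9 was used for summaries and plots. No sequences are shown, since none came with the tables used here.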

Additional observations from a re-analysis of the deposited data

Results flagged for a closer look

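The change in the ovary differed from the mean change of the endometrium and the oviduct in 4419 genes. Among the 10 largest rises, the 10 largest falls and the genes of follicle and corpus luteum given whatever their change, the difference was tested for 29 genes, and 16 differed. Over all genes tested, 27.4% differed. The largest rises and falls were chosen by the ovary's change, which is part of this difference, so the count of 16 is a description only. The difference on the log2 scale was positive in CPS1 (7.95), ALOX15 (5.8), OLFM2 (6.8), FMO1 (5.59), KCNK3 (5.82), ADRB1 (4.88), DIO1 (5.33), HMGCS1 (2.77), SCARB1 (2.12) and VEGFA (0.86). It was negative in SMPDL3A (-5.68), OLR1 (-5.71), PENK (-9.83), COL2A1 (-4.85), TRPM2 (-6.25) and CYP17A1 (-4.34). Among these, HMGCS1, SCARB1, VEGFA and CYP17A1 were not called in the ovary by itself. The test of the difference used a spread shared by all tissues, so it does not replace the test in the ovary.

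The day 12 ovary library numbered 1 was flagged in 3 genes as lying far from the other 3 libraries of that day. FSHR was highest there at 52.2 CPM (median of the day 1.34 CPM), INHA was highest at 1833 CPM (median 138 CPM), and SCARB1 was lowest at 308 CPM (median 7666 CPM). The same library was also the lowest of day 12 in genes without a flag. It had 134 CPM of CYP11A1 (median 7365 CPM), 98.1 CPM of HMGCS1 (median 3976 CPM) and 2.89 CPM of KCNK3 (median 316 CPM). In LHCGR it was near the others, at 31.7 CPM (median 38.8 CPM). Of 18 groups of 4 libraries looked at, 3 were flagged. These flags come from the same library and are not independent, so they are not set against a rate by chance.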

How the results depend on the processing

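For day 6 against day 0, the 1977 calls became 1945 with DESeq2's size factors, 1448 without a filter, 2681 in a fit of days 0 and 6 only and 3230 with DESeq2's Wald test, which called 1653 genes lower. Leaving out 1 library gave between 112 and 2149 calls, between 59 and 1079 higher and between 53 and 1070 lower, with the lowest value without the day 0 library numbered 1. Without the day 0 libraries numbered 1 and 2, 27 genes were called, 0 higher and 27 lower, while 1980 had an unadjusted p under 0.05. That fit has 1 sample on day 0, which is assumed to vary like the other days. CD68 was the 1 named gene to change sign there, with a log2 FC of 0.08. Scaling by totals only gave 541 higher and 1454 lower calls, 27.1% higher against 59.5%.

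Of 54 named genes called, 52 were called with DESeq2's size factors, 54 with its Wald test, 41 without a filter and 46 with totals only. Without the day 0 library numbered 1 it was 5 (CTSL, DIO1, FST, OLR1 and RHCG).

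For the difference between tissues, a fit of all libraries called 2994 genes, 1426 of them more positive, and leaving out 1 library gave between 3329 and 5212 calls, between 1711 and 2709 more positive and between 1559 and 2503 more negative. The cause was not tested for any of these changes.

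With the replicate number as a block, 1748 genes were called for day 6 against day 0 and 4285 between tissues, and 46 of the 54 named genes were called. Deviations of libraries with the same number correlated by 0.063, 0.044 and 0.087, so the numbers were not taken as a pairing.

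Depth limits genes with few counts: 3 counts are 0.2275 to 0.2786 CPM by the library totals, before the TMM factors. In genes under that level, such as CPS1 on day 0, absence was not shown.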

Other observations

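Beyond the lists of the report, families of genes with shared symbols were counted. They were chosen after the values were seen, so their counts are descriptions. Many subunits of the respiratory chain rose on day 6. In complex I, 12 of 20 tested subunits encoded in the nucleus were called higher and 0 lower (median log2 FC 0.884), and in complexes III, IV and V 11 of 18 were higher and 0 lower (median 0.985), against 7.53% higher among all genes. Of the 13 proteins encoded by the mitochondrial genome, 8 were called higher, and all 13 were separate, with day 6 above, against 21.2% of all genes. COX1, a subunit of cytochrome c oxidase, had 11941, 17942 and 14839.9 CPM on day 0 and 58487, 78373 and 48967 CPM on day 6 (log2 FC 2.05, edgeR adjusted p = 0.036). UQCRFS1, the iron-sulphur protein of complex III, had 101, 126 and 127 CPM on day 0 and 409.6, 357 and 417 CPM on day 6 (log2 FC 1.74, edgeR adjusted p = 0.011).

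Among 17 enzymes of the tricarboxylic acid cycle and pyruvate dehydrogenase, 12 were called higher and 0 lower (median log2 FC 1.11), against 7.53% and 5.12% of all genes. MDH2, the mitochondrial malate dehydrogenase, had 30.2, 55.9 and 59 CPM on day 0 and 188, 177 and 183 CPM on day 6 (log2 FC 1.92, edgeR adjusted p = 0.029). Of 43 proteins of the mitochondrial ribosome 18 were higher and 0 lower, whereas of 24 of the cytosolic ribosome 1 was higher and 0 lower, with medians of 0.685 and -0.123. The shares called were 41.9% and 4.17%, against 12.6% of all genes. Of 20 proteasome subunits 10 were higher and 0 lower (median 0.666), against 7.53% and 5.12% of all genes. Of 164 genes with a zinc finger (ZNF) symbol, 1 was higher and 10 were lower (median -0.424), against 7.53% and 5.12% of all genes. The share called, 6.71%, was below the 12.6% of all genes. Since this family shares sequence, reads may be shared between its members. These counts depend on scaling and on the day 0 library numbered 1. With library totals only, 7 subunits of complex I, 7 of complexes III to V, 5 encoded in mitochondria, 8 enzymes of the cycle, 0 proteins of the mitochondrial ribosome and 1 of the proteasome were called higher, and 18 ZNF genes lower. Without the day 0 library numbered 1, 1 enzyme of the cycle was called higher, 1 ZNF gene was called lower and 0 genes of the other families were called, while the medians of the complex I, complex III to V and cycle families were 0.833, 0.937 and 1.02.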
